A study of Homo sapiens with 5 samples.

Results

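Expression of 10 genes that trim and branch N-linked glycans was compared between MCF10A SAM cells with and without CRISPR activation of JUN. The genes were the mannosidases MAN1A1, MAN1A2, MAN1B1, MAN1C1, MAN2A1 and MAN2A2 and the N-acetylglucosaminyltransferases MGAT1, MGAT2, MGAT4B and MGAT5. They were found by matching their symbols to the Entrez identifiers of the count table, and all 10 were among its 23459 genes. The set was put together around MAN1A1, which had been picked because its values were higher in the JUN-activated cells. Its own change is therefore given as a description with no test, and the tests below concern the other 9 genes.

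MCF10A is an immortalised human mammary epithelial line. SAM cells are derivatives of it that were infected with dCas9-VP64, a catalytically dead Cas9 joined to a transcriptional activator, and with MCP-p65-HSF1, which adds further activators to the guide. Both groups carried these components. The labels say that single clones were picked and the methods of the study describe the SAM cells as clonal, but neither says whether both groups came from the same clone. NTC (3 libraries) denotes cells with a non-targeting control guide, and sgJUN#1 (2 libraries) denotes cells with 1 guide aimed at the promoter of JUN. Transcripts were counted by sequencing near their 3′ ends, and the study calls its replicates biological, while the labels name no separate cultures, so the tests measure the spread between these libraries. For its own enrichment analysis of this contrast the study counts fewer replicates than the labels list for NTC. Which libraries it used is not stated, and all 5 were used here.

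N-linked glycans are sugar trees on the asparagines of secreted and membrane proteins. A mannose-rich precursor is built on dolichol, moved to the protein in the endoplasmic reticulum (ER) and trimmed there by glucosidases and by MAN1B1, which also takes part in the disposal of misfolded glycoproteins. In the Golgi, MAN1A1, MAN1A2 and MAN1C1 remove further mannoses, MGAT1 starts the first antenna, MAN2A1 or MAN2A2 cuts the remaining outer mannoses and MGAT2 starts the second antenna. MGAT4B and MGAT5 then add extra branches, on which galactose chains that bind galectins can be built. JUN is a subunit of the transcription factor AP-1, whose usual binding site reads TGANTCA.

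The promoter sequences of the genes were read from RefSeq on GRCh38.p14, as windows from 250 bases before to 50 bases after an annotated start. There were 20 windows for 9 of the 10 genes. Each was searched on both strands for the AP-1 letters TGANTCA, the related cyclic-AMP element TGACGTCA and the TEAD letters GGAATG, which do not overlap in any of these windows. The AP-1 letters stood in 2 of the 20 windows, 1 of MAN1C1 and 1 of MGAT1, and in 7.71% of the 35116 RefSeq windows of the same length. GGAATG stood in 3 windows, 1 each of MAN2A2, MGAT4B and MGAT5 (14.0% of all windows), and TGACGTCA in 0 (1.85% of all windows). Below are the only window of MAN1A1, shown because this gene had the largest difference of the 10, and the windows of MAN1C1 and MGAT1 that hold the AP-1 letters, which are in capitals. They lie at chr6:119349712-119350011 (minus strand), chr1:25695905-25696204 (plus strand) and chr5:180815567-180815866 (minus strand).
MAN1A1: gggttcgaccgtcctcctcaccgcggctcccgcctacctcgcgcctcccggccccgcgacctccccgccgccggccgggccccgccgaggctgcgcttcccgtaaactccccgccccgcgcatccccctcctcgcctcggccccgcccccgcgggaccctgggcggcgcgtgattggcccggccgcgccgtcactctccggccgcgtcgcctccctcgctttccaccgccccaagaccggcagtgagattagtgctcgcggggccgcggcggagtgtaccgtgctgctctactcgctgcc
MAN1C1: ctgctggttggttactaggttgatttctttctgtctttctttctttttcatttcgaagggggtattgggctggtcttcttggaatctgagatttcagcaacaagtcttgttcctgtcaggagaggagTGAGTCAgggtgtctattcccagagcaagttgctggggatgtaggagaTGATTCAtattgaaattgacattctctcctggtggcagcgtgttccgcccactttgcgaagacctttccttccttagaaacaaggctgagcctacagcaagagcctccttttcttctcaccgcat
MGAT1: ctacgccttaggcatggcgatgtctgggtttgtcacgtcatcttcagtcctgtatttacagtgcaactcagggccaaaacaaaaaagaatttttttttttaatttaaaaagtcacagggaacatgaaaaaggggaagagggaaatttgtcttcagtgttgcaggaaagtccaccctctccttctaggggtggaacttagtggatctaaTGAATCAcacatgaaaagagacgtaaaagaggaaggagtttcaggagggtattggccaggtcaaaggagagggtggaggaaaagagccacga
The MAN1A1 window holds 77.3% G and C. The matches in MAN1C1 begin at positions -123 and -75 from the start and the match in MGAT1 at -42. These are matches of letters in 1 annotated window and were not read as binding sites.

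The library totals ran from 2455627 to 4988062 counts. On these unscaled totals 3 counts, which a count of 0 leaves possible, were worth 0.601 to 1.22 CPM (counts-per-million). The levels of genes are given as CPM on library sizes scaled by the trimmed mean of M values (TMM). JUN (Entrez 3725) was at 25.0, 36.1 and 9.27 CPM in NTC replicates 1 to 3, against 171 and 264 CPM in sgJUN#1 replicates 1 and 2. Its level was higher in each sgJUN#1 library than in any control, and JUN is the gene that the guide of these libraries targets. The log2 fold change (sgJUN#1 over NTC, as everywhere below) was 3.25 with a standard error (SE) of 0.484, and its adjusted p-value of 0.0733 in the quasi-likelihood test of edgeR was over the threshold of 0.05. The call depended on the processing. JUN passed with DESeq2, the tool of the study (adjusted p-value 7.4e-12), and with limma-voom (0.0342). With edgeR it passed without NTC replicate 2 (0.0144), without NTC replicate 3 (0.0012) and with the replicate block (1.2e-04). The last 2 are not separate checks. Replicate 3 exists only in NTC, so the block takes the group difference from replicates 1 and 2 alone. Of 10 epithelial markers, 8 were over 3 CPM in every library, all but the keratins KRT14 and KRT17. The adhesion molecule EPCAM was at 23.6, 7.30 and 23.2 CPM in NTC, against 143 and 56.3 CPM in sgJUN#1. Its groups were apart, at 2.44 on the log2 scale (SE 0.514), but it did not pass with edgeR (adjusted p-value 0.21). KRT17 and ITGA6 were also apart and higher in sgJUN#1, at 1.80 and 0.17 on that scale. KRT14 and EGFR were apart in the other direction, at -1.16 and -0.68, and the groups of the remaining epithelial markers overlapped. Of all tested genes 25.0% had groups apart in either direction. Of 7 fibroblast markers PDGFRA and DCN were over 3 CPM in every library, and the collagens COL1A1, COL1A2 and COL3A1 were under 3 CPM in all. PDGFRA had groups apart and was lower in sgJUN#1, at -0.26 on the log2 scale (edgeR adjusted p-value 0.769). COL1A1 and COL3A1 were apart and higher, at these low levels, and the groups of the other fibroblast markers overlapped. The summed levels overlapped between the groups, with 1153 to 1953 CPM in NTC and 1073 to 2239 CPM in sgJUN#1 for the epithelial list, and 190.0 to 299 CPM and 179 to 217 CPM for the fibroblast list. The summed level of 6 blood and endothelial markers was 14.5 to 19.5 CPM in NTC and 21.2 to 24.9 CPM in sgJUN#1, so here the groups were apart. PTPRC, CD3E and PECAM1 were under 3 CPM in all libraries, and CDH5 was at most 3.24 CPM. VWF and CD68 were over 3 CPM in every library. VWF was at 5.21 to 8.39 CPM in NTC, against 8.23 and 5.70 CPM in sgJUN#1. CD68 was at 3.09 to 8.11 CPM in NTC, against 11.3 and 16.0 CPM in sgJUN#1. Its groups were apart, at 1.26 on the log2 scale, but it was not called (edgeR adjusted p-value 0.416). The part of these markers in the results was not tested.

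MAN1A1 (Entrez 4121, GRCh37 chromosome 6, 119498370 to 119670926, minus strand) was the only one of the 10 genes past the threshold in the fit over all genes, in which 0.206% of the 13616 tested genes passed, 0.0808% as higher and 0.125% as lower in sgJUN#1. Because the gene was chosen on this contrast, nothing is read from that call. The NTC libraries held 6, 6 and 10 MAN1A1 counts and the sgJUN#1 libraries 56 and 97. This gave 1.65, 2.43 and 2.21 CPM in NTC (mean 2.10 ± 0.406, SD, n = 3) against 11.5 and 34.6 CPM in sgJUN#1 (mean 23.0 ± 16.3, SD, n = 2). MAN1A1 was thus close to the detection limit in all 3 control libraries, and the lower sgJUN#1 library was 4.73 times the highest NTC library. The fitted difference was 3.42 on the log2 scale (SE 0.514), which is 10.7-fold. The 2 sgJUN#1 libraries differed from each other by 3.00 times in MAN1A1 and by 1.55 times in JUN, with replicate 2 the higher in both. Counting error does not cover that gap, since the exact 95% Poisson intervals were 8.70 to 15.0 CPM for replicate 1 and 28.0 to 42.2 CPM for replicate 2. Without sgJUN#1 replicate 2 the log2 fold change was 2.46, and without replicate 1 it was 4.04. No NTC library reached the 2.68 CPM that the expression filter asks for, so MAN1A1 was tested only through the sgJUN#1 libraries. A mean over bulk RNA cannot tell a change in all cells from a change in the share of cells that express the gene.

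**Figure D1:**
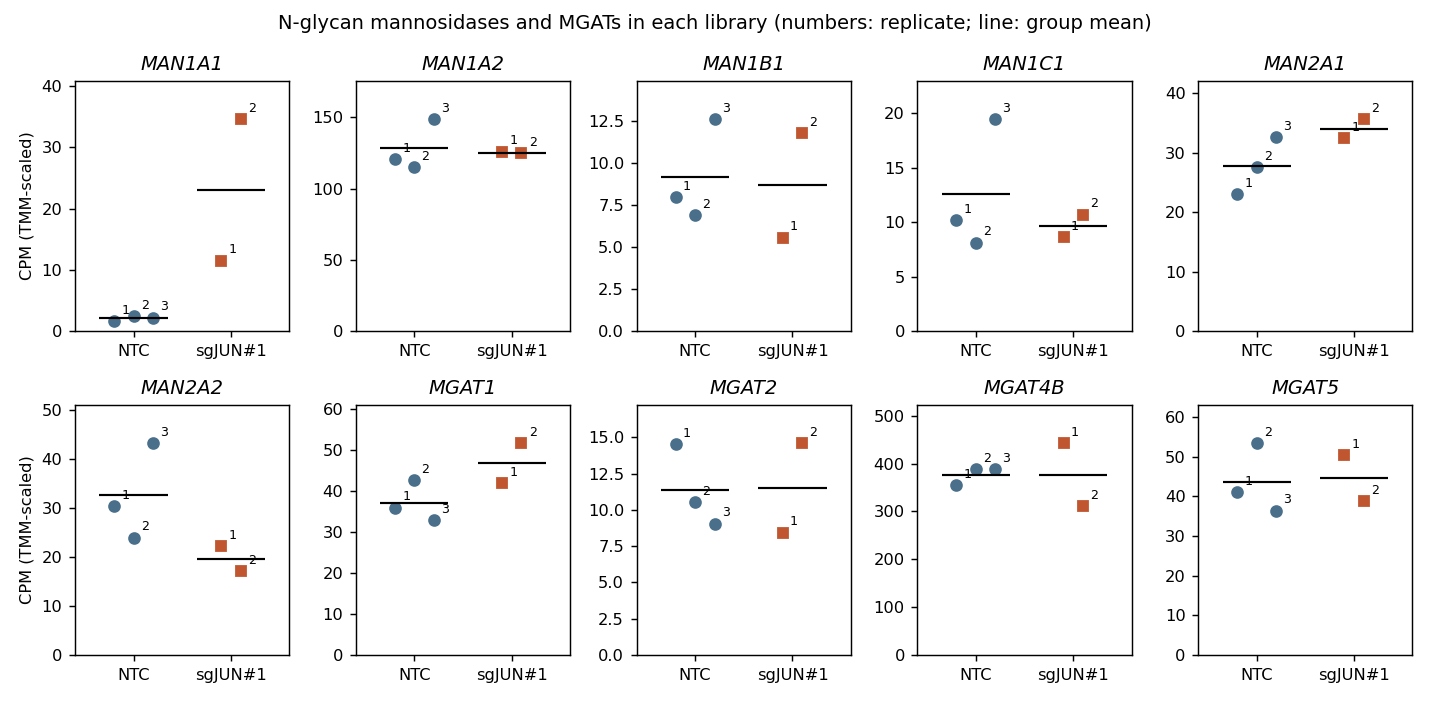
TMM-scaled CPM of the 10 genes in each of the 5 libraries (circles, NTC; squares, sgJUN#1), with the replicate number beside each point and the group mean as a line; each panel has its own axis from 0. MAN1A1 was at most 2.43 CPM in NTC, against 11.5 and 34.6 CPM in sgJUN#1, MAN2A2 was lower in both sgJUN#1 libraries, and the groups of the other 8 genes overlap.

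The place of MAN1A1 among the Golgi mannosidases that act before MGAT1 was followed within each library. Of all counts on MAN1A1, MAN1A2 and MAN1C1, MAN1A1 took 1.24% in NTC replicate 1 (exact 95% binomial interval 0.456 to 2.68), 1.94% in replicate 2 (0.714 to 4.16) and 1.30% in replicate 3 (0.623 to 2.37). In sgJUN#1 its share was 7.88% in replicate 1 (6.0 to 10.1) and 20.3% in replicate 2 (16.8 to 24.2). The intervals of the control libraries overlap each other and none reaches those of the sgJUN#1 libraries. Per 100 counts of MAN1A2 there were 1.36 to 2.11 counts of MAN1A1 in NTC and 9.14 and 27.7 in sgJUN#1. The summed level of these genes was 126 to 170 CPM in NTC (170 in replicate 3) and 146 and 170 CPM in sgJUN#1, so the total overlapped between the groups while the MAN1A1 share did not. These shares use the counts that chose MAN1A1 and carry no test. They follow 1 gene across libraries and do not give the relative abundance of the enzymes, since counts near the 3′ end were not calibrated between genes.

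**Figure D2:**
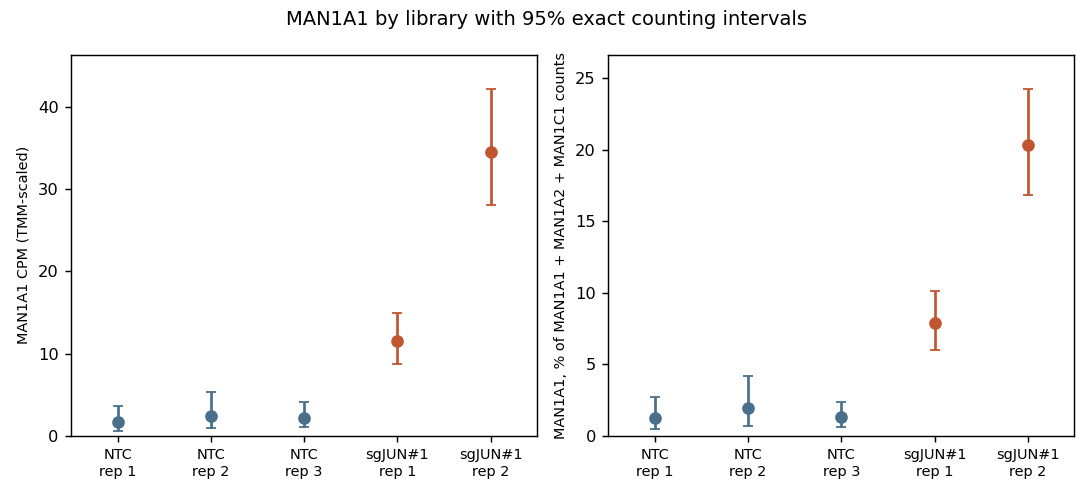
MAN1A1 in each library as TMM-scaled CPM (left) and as percent of the counts on MAN1A1, MAN1A2 and MAN1C1 (right), with exact 95% Poisson and binomial intervals that cover counting error only. The 3 NTC libraries lie at 1.24% to 1.94% and the sgJUN#1 libraries at 7.88% and 20.3%, with a gap between the last 2 that their intervals do not bridge.

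None of the other 9 genes passed the edgeR threshold, against 0.206% of all genes tested, and none did with DESeq2 (0.975% of all genes) or limma-voom (0.147%). MAN2A2 alone had an unadjusted p-value under 0.05, a share of 1 in 9 beside 8.38% of all tested genes. All 9 passed the expression filter in all 5 libraries. Their log2 fold changes lay between -0.73 and 0.34, and the median was -0.011, beside a median of -0.0082 over all tested genes, and 4 were positive and 5 negative. For 6 of the 9 genes the 95% interval stayed within 1 log2 unit, that is 2-fold, of no change. The intervals of MAN1B1, MAN1C1 and MAN2A2 reached beyond 2-fold on the lower side, and none of the 9 did so on the upper side.

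MAN1A2 (Entrez 10905, GRCh37 chromosome 1, 117910071 to 118071494, plus strand), the paralog of MAN1A1 that acts on the same mannoses in the Golgi, was at 121, 115 and 149 CPM in NTC, against 126 and 125 CPM in sgJUN#1. The sgJUN#1 libraries lay inside the range of the controls. The log2 fold change was -0.035 (SE 0.199), with a 95% interval from -0.48 to 0.41 and an edgeR adjusted p-value of 0.979. A change by 2-fold in either direction lies outside that interval. MAN1C1 (Entrez 57134, GRCh37 chromosome 1, 25943282 to 26112697, plus strand), the third Golgi enzyme of this class, was at 10.1, 8.11 and 19.4 CPM in NTC, against 8.64 and 10.7 CPM in sgJUN#1. NTC replicate 3 stood above the other 4 libraries, and the groups overlap. The log2 fold change of -0.43 (SE 0.401; interval -1.32 to 0.47; edgeR adjusted p-value 0.818) became 0.053 without that library.

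MAN1B1 (Entrez 11253, GRCh37 chromosome 9, 139981309 to 140003641, plus strand), the mannosidase of the early secretory pathway that marks glycoproteins for degradation, was at 7.95, 6.89 and 12.6 CPM in NTC, against 5.55 and 11.8 CPM in sgJUN#1. The sgJUN#1 libraries differed from each other more than the group means did. The difference was -0.16 on the log2 scale (SE 0.421; interval -1.10 to 0.79), with an edgeR adjusted p-value of 0.956. A 2-fold decrease lies within that interval, at 17 to 57 counts per library.

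The class II mannosidases of the Golgi, which open the glycan for its second antenna, had differences of opposite sign. MAN2A1 (Entrez 4124, GRCh37 chromosome 5, 109025628 to 109205326, plus strand) was at 23.0, 27.6 and 32.7 CPM in NTC, against 32.5 and 35.6 CPM in sgJUN#1. The lower sgJUN#1 library fell just below NTC replicate 3, so the groups overlap. Its log2 fold change was 0.29 (SE 0.237; interval -0.24 to 0.82; edgeR adjusted p-value 0.789). MAN2A2 (Entrez 4122, GRCh37 chromosome 15, 91445448 to 91465814, plus strand) was at 30.4, 23.9 and 43.3 CPM in NTC, against 22.2 and 17.1 CPM in sgJUN#1. It was the only one of the 9 whose groups did not overlap, as 12.8% of all tested genes did in this direction and 25.0% in either. The log2 fold change was -0.73 (SE 0.299; interval -1.40 to -0.057), and the edgeR p-value of 0.0363 before adjustment became 0.556 over all genes. The difference between the 2 paralogs was not tested. Without NTC replicate 3, the highest library, the value for MAN2A2 was -0.46.

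**Figure D3:**
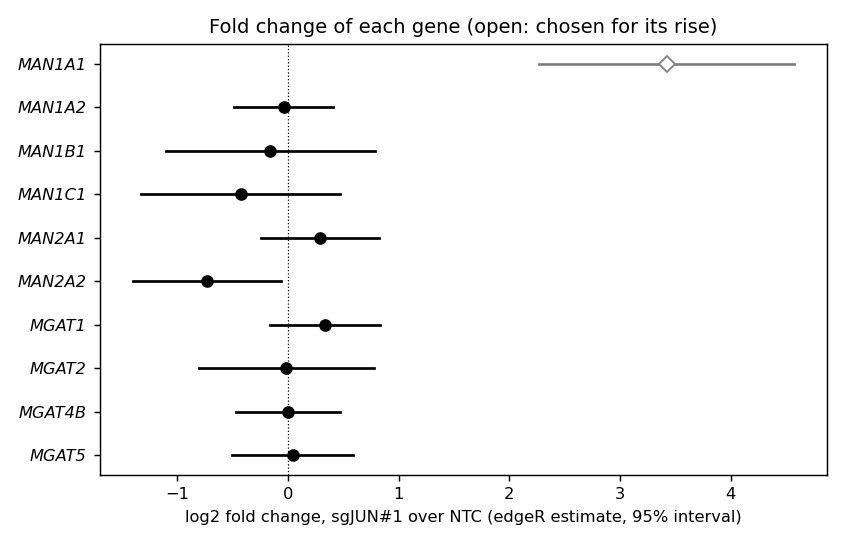
Log2 fold change of each gene (sgJUN#1 over NTC) from edgeR with its 95% interval; the open diamond is MAN1A1, which was chosen for its rise. The 9 filled points lie between -0.73 and 0.34, and the interval of MAN2A2, from -1.40 to -0.057, is the only one of them that leaves out 0.

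MGAT1 (Entrez 4245, GRCh37 chromosome 5, 180211780 to 180242652, minus strand), whose N-acetylglucosamine opens the way from mannose-rich to hybrid and complex glycans, was at 35.9, 42.6 and 32.9 CPM in NTC, against 42.0 and 51.7 CPM in sgJUN#1. The lower sgJUN#1 library lay just under NTC replicate 2. The log2 fold change was 0.34 (SE 0.222; interval -0.16 to 0.83; edgeR adjusted p-value 0.744), the highest of the 9. MGAT2 (Entrez 4247, GRCh37 chromosome 14, 50087517 to 50090199, plus strand), which starts the second antenna and so completes the core of a complex glycan, was at 14.5, 10.5 and 9.05 CPM in NTC, against 8.43 and 14.6 CPM in sgJUN#1. The sgJUN#1 libraries bracketed the controls. Its difference was -0.011 on the log2 scale (SE 0.352; interval -0.80 to 0.78; edgeR adjusted p-value 0.996). A long non-coding RNA gene on the opposite strand covers 2666 of the 2683 bases of MGAT2, and since the use of strand in counting was not stated, their reads cannot be told apart.

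The branching enzymes MGAT4B and MGAT5 did not separate the groups. MGAT4B (Entrez 11282, GRCh37 chromosome 5, 179224597 to 179233952, minus strand), which adds a branch to the antenna begun by MGAT1, was at 354, 388 and 389 CPM in NTC, against 443 and 311 CPM in sgJUN#1. One sgJUN#1 library lay above all controls and the other below them, and the means were equal within the error, with a log2 fold change of 0.0010 (SE 0.208; interval -0.47 to 0.47; edgeR adjusted p-value 0.999). MGAT5 (Entrez 4249, GRCh37 chromosome 2, 134877554 to 135212192, plus strand), which adds a branch to the antenna begun by MGAT2, was at 41.1, 53.5 and 36.4 CPM in NTC, against 50.4 and 38.8 CPM in sgJUN#1. All libraries overlapped, with a log2 fold change of 0.044 (SE 0.242; interval -0.50 to 0.59; edgeR adjusted p-value 0.978). Changes of 2-fold lie outside the intervals of MGAT1, MGAT2, MGAT4B and MGAT5.

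**Figure D4:**
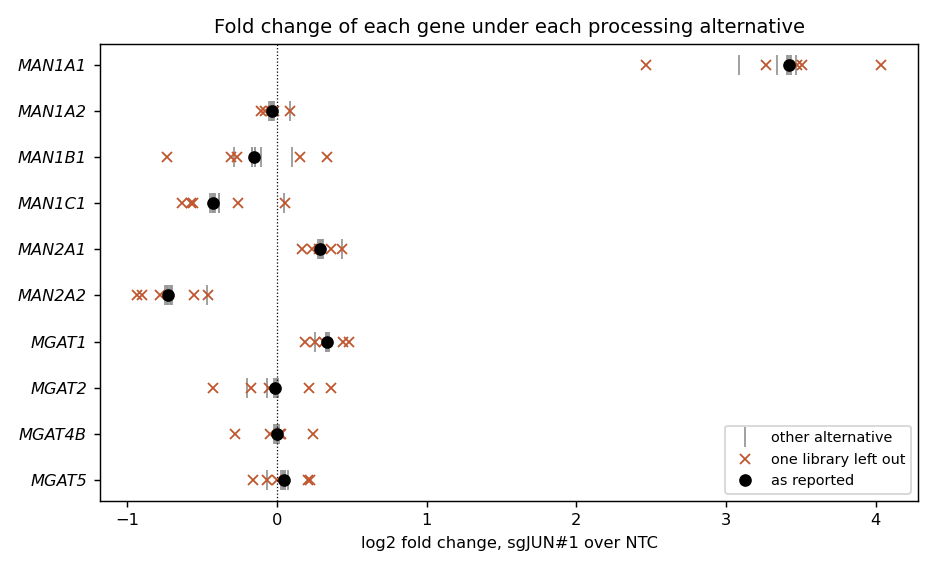
Log2 fold change of each gene as reported (black), with 1 library left out (crosses) and under the other processing alternatives (grey bars). MAN1A1 stays between 2.46 and 4.04 and the points of MAN2A1, MAN2A2 and MGAT1 stay on 1 side of 0, whereas those of the other 6 genes fall on both sides.

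The 5 genes whose pattern over the 5 libraries was most like that of MAN1A1 were RAB27B, GFPT2, GABRA2, CD24 and TENT5A. Likeness was the root mean square difference of log2 CPM centred on each gene's mean, and was 0.419 to 0.478 for these genes. RAB27B, a GTPase of exocytosis, was at 7.28 to 9.33 CPM in NTC, against 27.6 and 61.7 CPM in sgJUN#1. GFPT2, the enzyme that makes glucosamine 6-phosphate on the way to the sugar donor of the MGATs, was at 8.23 to 15.9 CPM in NTC, against 46.9 and 79.8 CPM in sgJUN#1. In each of the 5 both sgJUN#1 libraries were above all NTC libraries, with replicate 2 the highest. GABRA2, a subunit of the GABA receptor, was at 0.548 to 2.43 CPM in NTC, against 8.02 and 12.8 CPM in sgJUN#1, and TENT5A, a poly(A) polymerase, was at 1.37 to 2.43 CPM and then 6.58 and 13.2 CPM. CD24, a surface glycoprotein with near-identical copies in the genome whose reads may have been split, was at 51.8 to 65.7 CPM in NTC, against 182 and 357 CPM in sgJUN#1. These genes were picked by the measured pattern, so their values carry no test. Of the other 9 N-glycan genes MGAT1 came nearest, at rank 1410 of 13615, and MAN2A2 was farthest, at rank 12999.

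The neighbours of MAN1A1 on chromosome 6 were examined next. FAM184A, 27818 bases away, was at 3.29 to 6.40 CPM in NTC, against 4.73 and 9.27 CPM in sgJUN#1 (log2 fold change 0.37, SE 0.450, edgeR adjusted p-value 0.874). MCM9, a helicase gene 242043 bases away on the same side, was at 59.2 to 65.5 CPM in NTC, against 39.1 and 48.5 CPM in sgJUN#1 (-0.52, SE 0.207, edgeR adjusted p-value 0.535). On the other side the genes lay much farther off, with TBC1D32 1729714 bases and HSF2 3049770 bases away. Their log2 fold changes were -0.17 and -0.025 (edgeR adjusted p-values 0.928 and 0.984). No neighbour passed the threshold, and MIR548B, with 0 counts, and GJA1, with at most 4 counts in a library, were not tested. A long non-coding RNA gene on the opposite strand (119255935 to 119503910) overlaps the 3′ end of MAN1A1 by 5541 bases and had no row of its own, so reads from it could have been counted for MAN1A1 if strand was not used.

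The rest of the N-glycan pathway was described from 9 lists with 104 genes, of which 98 were tested. In edgeR 0 of them passed the threshold, as with DESeq2 and limma-voom, and 7 had an unadjusted p-value under 0.05 (8.38% of all genes did), 4 of them higher and 3 lower in sgJUN#1. The median log2 fold change of the 98 was 0.029, with 54 positive and 44 negative values between -0.73 and 0.74. Groups did not overlap for 13 genes that were higher and 12 that were lower, beside 12.2% and 12.8% of all tested genes. The value of MAN1A1, 3.42, lies outside that range, but the gene was chosen for its rise in this contrast, so nothing is read from its place.

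Before the mannosidases act, the precursor is assembled and transferred. Among 22 tested genes of the lipid-linked precursor the median was 0.15, and 16 had positive values, beside 6669 of all 13616 tested genes. Groups were apart and higher in sgJUN#1 for 7 of the 22 and lower for 2, beside 12.2% and 12.8% of all tested genes. Whether this list departs from all genes was not tested. Its values ran from -0.59 for ALG12, a mannosyltransferase, to 0.53 for DPM2, a subunit of dolichol-phosphate-mannose synthase. The 12 genes of the oligosaccharyltransferase had a median of 0.030, between -0.45 for its subunit DDOST and 0.28 for its subunit TUSC3. For ER trimming and quality control (17 genes) the median was -0.070. GANAB, the catalytic subunit of glucosidase II, which acts just before the mannosidases, had the lowest value of that list. It was at 159, 183 and 219 CPM in NTC, against 113 and 138 CPM in sgJUN#1. The difference on the log2 scale was -0.58 (SE 0.217; edgeR adjusted p-value 0.50). The highest was EDEM2, an ER mannosidase of glycoprotein degradation, with 0.27. Mannose supply (5 genes) had a median of 0.18, with PMM1, a phosphomannomutase, at -0.27 and GMPPA, which regulates GDP-mannose synthesis, at 0.26.

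After the mannosidases act, branches are extended and capped. The other branching enzymes MGAT4A and MGAT4C were at -0.25 and 0.21, with a median of 0.016 over 3 tested genes. Terminal capping (18 tested genes) had a median of -0.088, with GNE, the entry enzyme of sialic acid synthesis, lowest and SLC35C1, the GDP-fucose carrier of the Golgi, highest. GNE was at 31.0, 36.1 and 29.8 CPM in NTC, against 17.1 and 23.9 CPM in sgJUN#1 (-0.67, SE 0.252, edgeR adjusted p-value 0.508). SLC35C1 was at 17.8, 17.0 and 13.2 CPM in NTC, against 24.7 and 28.9 CPM in sgJUN#1 (0.74, SE 0.252, edgeR adjusted p-value 0.452). Neither passed, although the groups of both were apart. The UDP-galactose carrier SLC35A2 (0.72), the sialic acid activating enzyme CMAS (0.62), the galactosyltransferase B4GALT5 (-0.52) and, in the precursor list, the glucosyltransferase ALG5 (0.53) were the remaining genes with an unadjusted p-value under 0.05, and were named after their values were seen.

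The lysosomal and other mannosidases (12 genes with the partner enzymes of glycan breakdown) had a median of 0.23, from -0.37 for the lysosomal MANBA to 0.59 for the Golgi endomannosidase MANEA, which offers a route around the glucosidases. For the tagging of lysosomal enzymes with mannose 6-phosphate (5 genes) the median was -0.18, from -0.61 for NAGPA, which uncovers the tag, to 0.099 for GNPTG, a subunit of the enzyme that adds it. Of the galectins and their binding partner (4 tested genes, median 0.25), LGALS1 was highest at 0.57 and LGALS3BP lowest at -0.73. In each list 0 genes were called. The sign of the median turned under at least 1 alternative for terminal capping (0.040 without NTC replicate 3), mannose supply (-0.27 with at least 10 counts in every library), the oligosaccharyltransferase (-0.063 without NTC replicate 2) and the other branching enzymes (-0.29 without sgJUN#1 replicate 2). MGAT3, ALG11, ST6GAL2 and LGALS9 had at most 7 counts in a library and LGALS7 and LGALS7B, near-identical copies of each other, had 0, and these 6 genes were not tested.

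**Figure D5:**
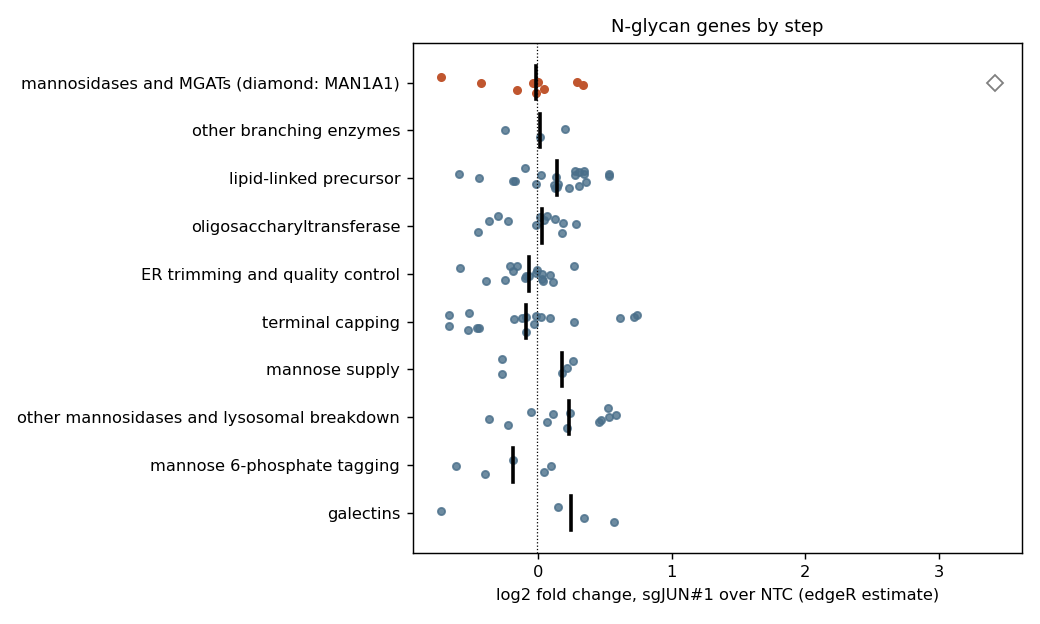
Log2 fold change (sgJUN#1 over NTC, edgeR) of every tested gene of the 10 N-glycan genes and of 9 further lists of the pathway; the bar is the median of a list (without MAN1A1 in the top row) and the dotted line the median of all tested genes. MAN1A1 (diamond, 3.42) was chosen for its rise, so its distance from the other points, which run from -0.73 to 0.74, is no test.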

How the data were processed

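The authors made QuantSeq forward 3′ mRNA libraries per the labels (the general RNA-sequencing methods of the study describe another kit), trimmed reads with Cutadapt and aligned them to hg19 with Bowtie2 (versions 4.2 and 2.3.5.1 per the submitters' processing notes), and per the study's methods reads were counted per gene with countOverlaps. The authors deposited whole-number counts for each gene, with no normalisation. The annotation, strand, multiply aligned reads and molecular identifiers were not given in the sources used here, so overlapping genes and near-identical copies are uncertain. The Poisson and binomial intervals cover counting error only, while the edgeR intervals include the spread between libraries. Symbols came from RefSeq (GRCh38.p14, 23308 of 23459 genes) and positions from GENCODE version 44 mapped to GRCh37 (22207 genes).

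The members, the gene lists and the tests were chosen with earlier results of these data known. Counts were tested in R 4.3.3 by the quasi-likelihood method of edgeR 4.0.16 (TMM, filterByExpr with a minimum count of 10, robust, group as the only term, tested on simulated data), with Benjamini-Hochberg adjustment over 13616 genes and a threshold of 0.05. The study used DESeq2. The SE was derived from the log2 fold change and its F statistic, and intervals use the t distribution. The common dispersion of 0.0495 equals a biological coefficient of variation of 22.3%. Libraries of 1 group differed by more than counting noise (chi-square per degree of freedom 7.62 to 18.4). The pairs of NTC replicate 3 with NTC replicates 1 and 2 gave 18.4 and 13.7. NTC replicates 1 and 2 gave 7.75, and the sgJUN#1 libraries 7.62. No outlying library was removed. Alternatives were DESeq2 1.42.0, limma-voom (limma 3.58.1), other scalings and filters, leaving out each library and a replicate block. Named were all 10 members, JUN, in each list the called genes and the highest and lowest log2 fold change, the 5 genes nearest to MAN1A1 by log2 CPM (prior count 2) and 3 neighbours on each side. Groups came from the sample titles. One marker of the cell type check is not reported here.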

Additional observations from a re-analysis of the deposited data

How the results depend on the processing

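With 3 against 2 libraries and a coefficient of variation of 22.3%, changes smaller than the intervals given could not be seen, and MAN1A1 rests on 6 to 10 counts in each NTC library. The number of genes past the threshold over all tested genes was 28 and became 136 with DESeq2, 148 with no filter, 18 when at least 10 counts were asked of every library, 103 with the replicate block and 10 to 57 with 1 library left out (10 without NTC replicate 1, 56 without NTC replicate 2, 57 without NTC replicate 3). Under all 13 alternatives 0 of the other 9 members and 0 of the other listed N-glycan genes passed. The log2 fold change of MAN1A1 was 2.46 to 4.04 with 1 library left out. Whether MAN1A1 was called changed with the processing, and it was not tested where 10 counts were asked of every library. Nothing is read from these calls. The gene was chosen on this contrast and passed the expression filter only through the sgJUN#1 libraries. The JUN value passed the edgeR threshold with the replicate block (2.82, adjusted p-value 1.2e-04), without NTC replicate 2 (3.68) and without NTC replicate 3 (2.84), passed with DESeq2 (3.24) and with limma-voom (3.47), and had an adjusted p-value of at most 0.322 elsewhere. The median of the other N-glycan genes, 0.029, became 0.048 with DESeq2, 0.015 on library size alone, 0.019 with at least 10 counts in every library, 0.056 with the replicate block and 0.010 to 0.077 with 1 library left out.

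MAN2A1, MAN2A2 and MGAT1 kept their direction in all 13, though with 1 library left out the value ran from 0.17 to 0.43 for MAN2A1, from -0.94 to -0.46 for MAN2A2 and from 0.19 to 0.48 for MGAT1. The sign turned for MAN1A2 without NTC replicate 3 (0.088) and with the block (0.088), for MAN1B1 without NTC replicate 3 (0.15), without sgJUN#1 replicate 1 (0.34) and with the block (0.097), for MAN1C1 without NTC replicate 3 (0.053) and with the block (0.048), and for MGAT2 with DESeq2 (0.0060), without NTC replicate 1 (0.21) and without sgJUN#1 replicate 1 (0.36). It turned for MGAT4B with limma-voom (-0.013), on library size alone (-0.019), with no filter (-0.0031), with at least 10 counts in every library (-0.0018), without NTC replicate 1 (-0.044) and without sgJUN#1 replicate 1 (-0.28), and for MGAT5 without NTC replicate 3 (-0.067), without sgJUN#1 replicate 1 (-0.16) and with the block (-0.067). The turns with the block repeat those without NTC replicate 3, since both rest on replicates 1 and 2 for the group difference. The cause of the turns was otherwise not tested. With 1 library left out the values ran from -0.11 to 0.088 for MAN1A2, -0.73 to 0.34 for MAN1B1, -0.64 to 0.053 for MAN1C1, -0.43 to 0.36 for MGAT2, -0.28 to 0.24 for MGAT4B and -0.16 to 0.22 for MGAT5. The replicate numbers were shared by 2 pairs whose deviations correlated at 0.0146 over genes. No label ties a number to a batch, so the pairing was not used in the main fit. As replicate 3 exists only in NTC, the block's term for it takes up that library, and the block nearly repeats the fit without it. Where 1 library was left in a group, it was assumed to vary like the other group.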
